A study of Zea mays with 2 samples.

Results

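The short arm of maize chromosome 6 is the arm that carries the nucleolus organizer, and it is described here through its MNase hypersensitive sites. The sites were taken from the authors' merged peak list as every peak on chromosome 6 whose summit lies below 38 Mb. That gave 942 of the 66801 merged peaks. By the same position rule 1021 of 74443 peaks of replicate 1 and 810 of 60518 peaks of replicate 2 lie on the arm. It is set against the part of the long arm from 68 Mb to the last peak at 174 Mb, which held 3993 merged peaks, 4447 peaks of replicate 1 and 3605 of replicate 2. The stretch between 38 and 68 Mb was left out of both. The last merged peak inside the limit lies at 37858760 to 37858997, with a fold enrichment of 5.16, and the first outside it at 38040327 to 38040623, with 9.43.

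Both libraries belong to a single group: leaf of 10-day-old plants of the inbred maize line B73, with nuclei fixed in formaldehyde and digested with 100 U of micrococcal nuclease (MNase). Leaf was pooled from 10 plants, so the sites are an average over plants and over the cell types of a leaf, and nothing in the labels tells if replicates 1 and 2 were grown or collected separately. The spread between them may therefore be technical. There is no second genotype, tissue, digestion level or naked-DNA control among these libraries.

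In MH-seq the short fragments that MNase frees most readily are sequenced, here fragments of 40 to 100 bp, and places rich in them are called as peaks. Such sites are known to mark promoters, enhancers and other DNA held by transcription factors in place of nucleosomes. The nucleolus organizer is a tandem array of the genes for the large ribosomal RNAs, which RNA polymerase I transcribes and around which the nucleolus forms. In maize much of this array is packed as heterochromatin. The files mark neither the array nor the centromere, so no position within the arm was assigned to either. The peak lists alone hold nothing by which the label of the arm could be checked, and its limit of 38 Mb is a position rule.

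All positions are 1-based on B73 RefGen_v4. Fold enrichment is the peak's height over background as deposited by the authors, and no peak of any list is below 5. It and the deposited −log10 q belong to the peak and are compared within 1 list. The lists hold no read totals, so depth is unknown, and absence of a peak shows only that none was called. Intervals are 95% intervals that cover counting error with peaks as units, although neighbouring peaks are not independent. With 2 libraries of one group, no test over samples can go below 0.5 (exact two-sided sign-flip), so each comparison is given with its interval and with its value in each replicate.

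The short arm was poor in hypersensitive sites. Replicate 1 had 26.9 summits per Mb on the short arm and 42.0 on the long arm. Replicate 2 had 21.3 on the short arm and 34 on the long arm. Within each library the ratio of short over long arm was 0.640 (replicate 1) and 0.627 (replicate 2). The mean was 24.1 ± 3.93 summits per Mb on the short arm and 38 ± 5.62 on the long arm (SD, n = 2 replicates), and the values of the arms did not overlap. In the merged list the densities were 24.8 and 37.7 per Mb, a ratio of short over long arm of 0.658 (exact conditional interval 0.612 to 0.707), or a log2 ratio of -0.60. The long arm is itself dense: over all chromosomes there were 31.7 merged summits per Mb, 35.3 in replicate 1 and 28.7 in replicate 2. From 38 to 68 Mb of chromosome 6 the densities were lower than on the short arm, at 17.9 merged, 21.2 in replicate 1 and 15.3 in replicate 2. Called peaks covered 214 kb of the short arm, 0.563% of its length, and 0.908% of the long arm. Set against the last 38 Mb of the chromosome in place of the whole window, the log2 ratio was -1.01.

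Along the arm, the number of summits per 1 Mb bin swung widely and in the same places in both replicates. The 38 bins held a median of 22.5 merged summits, with an interquartile range of 18.25 to 32, against a median of 37 in the 106 whole bins of the long arm. Fewer than 10 merged summits lay in 4 of the 38 bins (10.5%) and in 0 of the 106 long-arm bins, where the lowest count was 11. Over all chromosomes 95 of 2101 bins (4.52%) held fewer than 10. Above the long-arm median lay 6 of the 38 short-arm bins and 685 of the 2101 bins of all chromosomes. Across the 38 bins the counts of the replicates had a Pearson correlation of 0.929 and a Spearman correlation of 0.924, as a description of bins that share 2 libraries. Replicate 1 had the higher count in 31 bins, replicate 2 in 3, and they were equal in 4. Replicate 1 held 1.26 times as many summits as replicate 2 on the short arm and 1.23 times as many on the long arm.

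Read from the chromosome start, the counts fell into 6 stretches, whose limits were set after the counts were seen. The first 5 Mb held 177 merged summits, with 29 to 43 in each bin, a density of 35.4 per Mb that came near to that of the long arm. From 5 to 11 Mb the density dropped to 22.5 per Mb, with 12 summits in the bin at 5 to 6 Mb and 32 in the bin at 7 to 8 Mb. From 11 to 14 Mb there were 8 merged summits in all, 13 of replicate 1 and 6 of replicate 2. The bin at 12 to 13 Mb held no merged summit and 1 summit of each replicate, and its neighbours held 2 and 6 merged summits. These are the 3 emptiest bins of the arm.

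Beyond the near-empty stretch the counts came back slowly. From 14 to 22 Mb the density was 17.9 merged summits per Mb, and no bin held more than 24. From 22 to 26 Mb it reached 47.5 per Mb. The arm's fullest bins were those at 23 to 24 Mb with 55 merged summits and at 25 to 26 Mb with 52, followed by the bin at 36 to 37 Mb with 47. Their counts were 55, 52 and 48 in replicate 1 and 47, 45 and 45 in replicate 2. From 26 to 38 Mb the density was 24.1 per Mb, with bins ranging from 9 to 47.

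**Figure D1:**
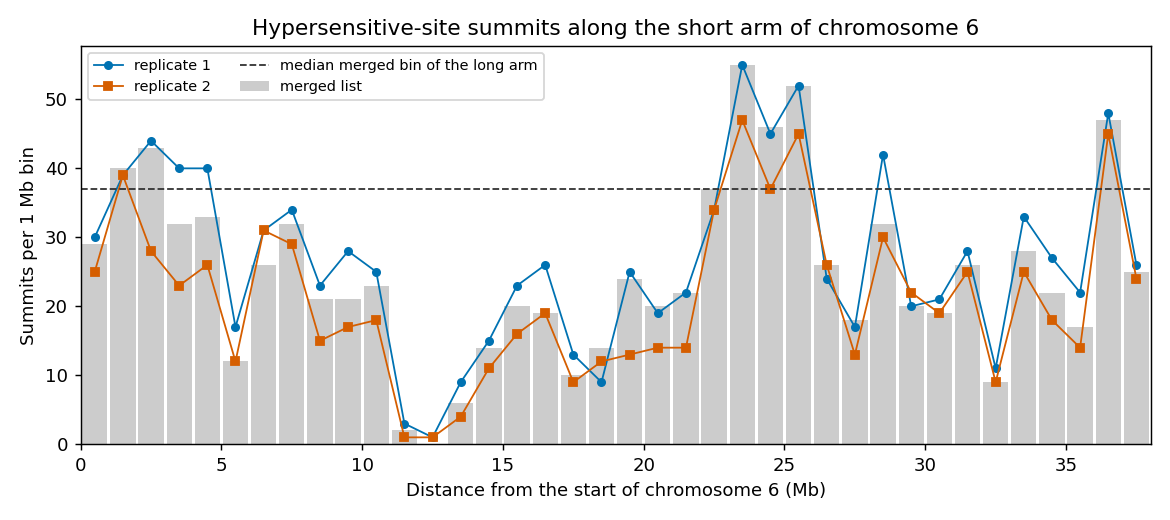
Summits per 1 Mb bin (vertical axis) against distance from the start of chromosome 6 in Mb (horizontal axis) for the short arm. Grey bars are the merged list, blue circles replicate 1 and orange squares replicate 2; the dashed line is the long-arm median of 37 merged summits per bin. All 3 lists dip at 11 to 14 Mb and peak at 22 to 26 Mb.

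The same length at the start of the other chromosomes was richer in sites. The first 38 Mb of chromosome 6 had 24.8 merged summits per Mb, the lowest of the 10 chromosomes, while the other 9 had 38.5 ± 7.27 (mean ± SD over chromosomes), from 27.5 on chromosome 10 to 48.6 on chromosome 2. Chromosome 6 also ranked lowest in each replicate list, with 26.9 in replicate 1 against 31.1 to 54.0, and 21.3 in replicate 2 against 24.5 to 44.9. Beyond 68 Mb the order turned in the merged list, and chromosome 6, at 37.7 per Mb, was the densest of the 10. The margin was narrow, as the other 9 ran from 28.6 to 37.0 per Mb. The part beyond 68 Mb also differs in length between chromosomes. These ranks are a description: 38 Mb is 21.8% of chromosome 6 but 12.4% of chromosome 1, so the windows reach different depths into the arms.

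Peak strength differed little. The median fold enrichment was 7.42 (order-statistic interval 7.21 to 7.71) on the short arm and 7.37 (7.22 to 7.49) on the long arm. In replicate 1 the medians were 7.56 and 7.54, and in replicate 2 they were 7.20 and 7.18. When all merged peaks of the genome are cut into 5 equal groups by fold enrichment, the strongest quintile held 22.8% of short-arm and 19.2% of long-arm peaks, a difference of 3.59 percentage points (Newcombe interval 0.735 to 6.62). Among the 500 strongest merged peaks of the genome, 15 lay on the short arm, or 1.59% of its peaks (Wilson interval 0.967 to 2.61%), and 25 on the long arm, or 0.626% (0.424 to 0.923%). The share over all merged peaks was 0.748%.

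Short-arm peaks were more often narrow. Peaks under 130 bp, which made up 22.8% of all merged peaks, numbered 283 of the 942 on the short arm, or 30.0% (Wilson interval 27.2 to 33.0%), and 23.2% (21.9 to 24.6%) on the long arm. The difference was 6.83 percentage points (Newcombe interval 3.69 to 10.1), with 6.98 in replicate 1 and 7.07 in replicate 2. Median width was 199 bp on the short arm and 217 bp on the long arm in the merged list, and 172 and 161 bp in the replicates on the short arm against 183 bp in each on the long arm. By quintile of fold enrichment, weakest first, the difference was 10.8 points (2.88 to 18.3), 12.8 (5.39 to 20.4), 6.92 (0.178 to 14.7), 4.63 (-0.203 to 10.7) and 2.23 (-1.11 to 6.75). Narrow peaks themselves were rarer among strong peaks, at 7.44% on the short arm and 5.21% on the long arm in the strongest quintile, and whether the quintiles differ in this respect was not tested. Among merged peaks with a −log10 q of 20 or more it differed by 0.720 points (-1.98 to 3.75), and from 26 to 38 Mb, a window picked after seeing the data, by 0.660 (-4.08 to 6.05). From 38 to 68 Mb 26.8% of merged peaks were narrow, with 42.5% in replicate 1 and 29.4% in replicate 2. The short arm had 40.8% and 38.9% in the replicates. In the first 38 Mb of the other 9 chromosomes 22.5% ± 3.04 of merged peaks were narrow (mean ± SD over chromosomes), at most 27.5%.

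The replicates shared fewer sites on the short arm than on the long arm. A peak of both replicates overlapped 576 of the 942 merged peaks by at least 1 bp, or 61.1% (Wilson interval 58.0 to 64.2%), against 76.9% (75.5 to 78.1%) on the long arm and 76.5% over all chromosomes. The difference between the arms was -15.7 percentage points (Newcombe interval -19.1 to -12.4). It was -6.86 when every list was cut to peaks with a −log10 q of 20 or more, so that a counterpart had to pass the filter too. Below 26 Mb, a border set after seeing the data, 55.3% of merged peaks were in both replicates, while from 26 to 38 Mb 74.4% were, and the difference from the long arm was -2.47 points (-7.95 to 2.41). Of the short-arm peaks, 243 overlapped replicate 1 alone, 106 replicate 2 alone and 17 neither. Taken from the replicates' own lists, 56.9% of short-arm and 70.2% of long-arm peaks of replicate 1 overlapped a replicate 2 peak (69.5% over all chromosomes), and 73.5% and 87.5% of those of replicate 2 overlapped a replicate 1 peak (86.5% over all chromosomes). The first 38 Mb of the other 9 chromosomes had 76.8% ± 1.15 of merged peaks in both replicates (mean ± SD over chromosomes), with a lowest value of 75.6%.

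**Figure D2:**
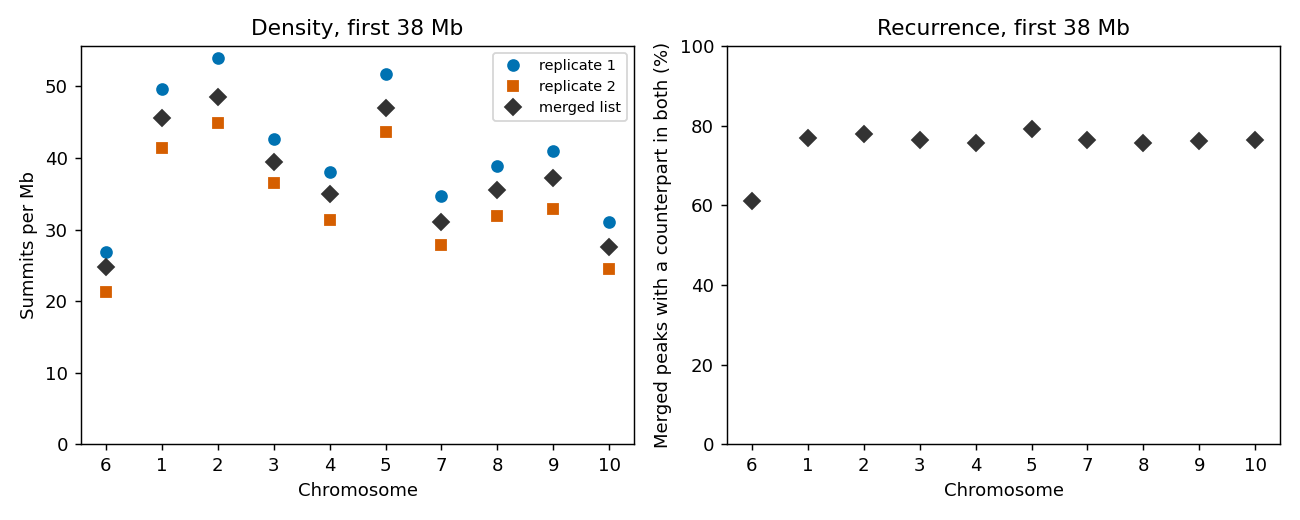
Left, summits per Mb in the first 38 Mb of each chromosome (horizontal axis, chromosome 6 at the left) for replicate 1 (blue circles), replicate 2 (orange squares) and the merged list (dark diamonds). Right, percentage of merged peaks there with a counterpart in both replicates: chromosome 6 stands at 61.1% and the other 9 at 75.6% or more.

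On both arms weak peaks recurred less often than strong ones, but on the short arm the shortfall reached the strong ones too. In the weakest quintile 18.5% of short-arm and 28.2% of long-arm peaks had a counterpart in both replicates, with 24.1% over all chromosomes. In the strongest quintile the shares were 82.3% (177 of 215) on the short arm and 99.9% (767 of 768) on the long arm, a difference of -17.5 points (Newcombe interval -23.2 to -13.0), with 98.9% over all chromosomes. The fourth quintile gave 81.8% on the short arm and 99.1% on the long arm, with 98.2% over all chromosomes. Where both replicates did have a peak, their summits lay a median of 15 bp apart on the short arm and 14 bp on the long arm. They were within 10 bp for 38.4% and 42.6%, and the replicates' fold enrichments had a Spearman correlation of 0.677 and 0.761. In the upper 2 quintiles those fold enrichments differed over 2-fold for 17 of 325 shared peaks (5.23%) on the short arm. On the long arm this held for 23 of 1533 (1.50%), and over all chromosomes for 1.77%.

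**Figure D3:**
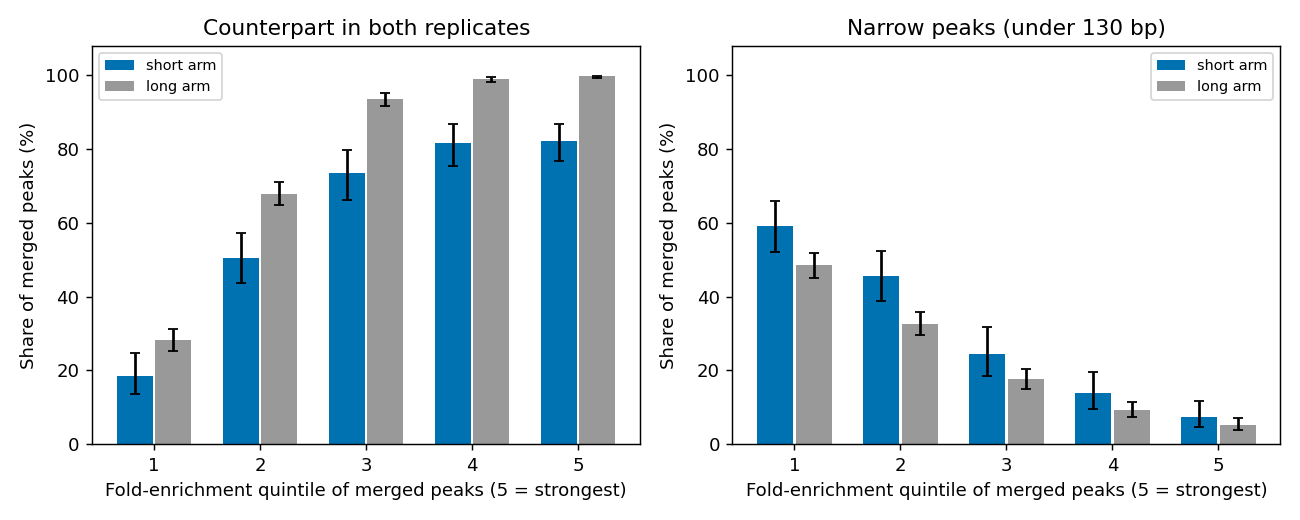
Percentage of merged peaks (vertical axes) by quintile of fold enrichment (horizontal axes, 5 the strongest), for the short arm in blue and the long arm in grey, with Wilson 95% intervals as error bars. Left, peaks with a counterpart in both replicates, where the short arm is lower in every quintile; right, peaks under 130 bp, where the short arm is higher in every quintile and the intervals of the differences reach below 0 in quintiles 4 and 5.

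Strong peaks present in 1 library and missing from the other were then followed along the arm, a step chosen after these shares were seen. Strong here means the upper 2 quintiles, with a fold enrichment of at least 8.32. Over all chromosomes 380 of 26720 strong merged peaks, or 1.42%, had no counterpart in one replicate. The short arm held 71 of its 396, or 17.9%, and the long arm 8 of 1541, or 0.519%. The arm thus carries 1.48% of the strong peaks of the genome and 18.7% of those missing from a replicate. In the first 38 Mb of the other 9 chromosomes the share ran from 0.661 to 1.41%. Of the 71 peaks, 61 were missing from replicate 2 and 10 from replicate 1, a tilt much like that of all chromosomes, where 323 of the 380 were missing from replicate 2.

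In the merged list these peaks were frequent below 26 Mb, though not in every bin there, and few beyond it. Below 26 Mb, 69 of 274 strong merged peaks (25.2%, Wilson interval 20.4 to 30.6%) lacked a counterpart in one replicate, and from 26 to 38 Mb 2 of 122 did (1.64%, 0.451 to 5.78%). The last of the 69 lies at 25431924 to 25432021. After it, 107 strong peaks in a row over 10.8 Mb had a counterpart in both replicates, up to a peak at 36240245 to 36240545 that replicate 1 lacks. Below 26 Mb, 21 of the 24 bins with any strong peak held at least 1 that was missing from a replicate, compared with 11.2% of such bins over all chromosomes. The bin at 5 to 6 Mb was the most affected in proportion, with 5 of 6 strong peaks missing from replicate 2, and the bin at 3 to 4 Mb in number, with 8 of 18 missing from a replicate.

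The stretch from 10 to 16 Mb, which holds the near-empty bins, had few strong peaks. Its limits were set after the data were seen, which the intervals do not cover. There 1 of 19 strong merged peaks was missing from a replicate (5.26%, Wilson interval 0.935 to 24.6%), against 32 of 120 from 0 to 10 Mb and 36 of 135 from 16 to 26 Mb. In replicate 1's own list 3 of 18 strong peaks of this stretch met none of replicate 2. Among the stretches compared here, that from 10 to 16 Mb was also the richest in narrow peaks. There 45 of its 65 merged peaks were under 130 bp (69.2%, Wilson interval 57.2 to 79.1%). From 0 to 10 Mb 29.8% were narrow, from 16 to 26 Mb 27.8% and from 26 to 38 Mb 23.9%.

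**Figure D4:**
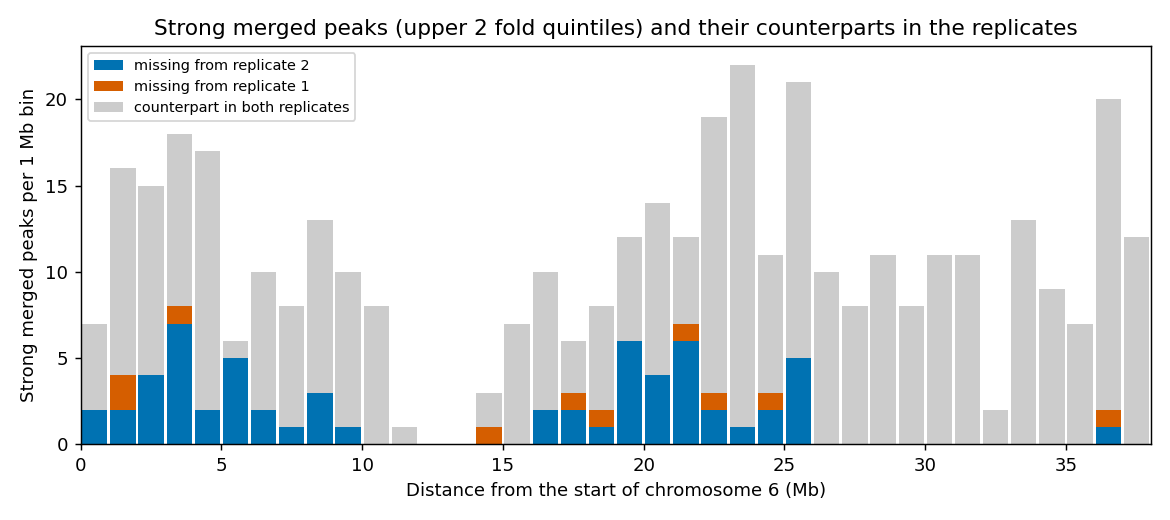
Strong merged peaks per 1 Mb bin (vertical axis) against distance from the start of chromosome 6 in Mb (horizontal axis). Blue segments are peaks missing from replicate 2, orange segments peaks missing from replicate 1 and grey segments peaks with a counterpart in both; coloured segments appear in 21 bins below 26 Mb and in 1 bin beyond it.

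The replicates' own lists were also counted, in both directions and with the same border. They come from the same libraries as the merged peaks, so this is no separate check. The border was set after seeing the data, which the intervals do not cover. Of the strong peaks in replicate 1's own list below 26 Mb, 87 of 280 (31.1%, Wilson interval 25.9 to 36.7%) met no replicate 2 peak, while 2.70% of those on the long arm and 3.61% over all chromosomes did not. Of the strong peaks in replicate 2's list below 26 Mb, 29 of 228 (12.7%, 9.0 to 17.7%) met no replicate 1 peak, against 0.434% on the long arm and 1.13% over all chromosomes. From 26 to 38 Mb the shares were 3.01% in replicate 1 and 3.92% in replicate 2. Averaged over each side, the density was 25.1 merged summits per Mb below 26 Mb and 24.1 from 26 to 38 Mb, with log2 ratios to the long arm of -0.58 and -0.65. Near 26 Mb itself the density changed as well, with 47.5 per Mb from 22 to 26 Mb, and the bins from 22 to 28 Mb held 37, 55, 46, 52, 26 and 18 merged summits.

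The missing peaks included some of the strongest of the genome. The first of them by height lies at 4121603 to 4121822 (220 bp) and was enriched 32.1-fold in the merged list, ranking 24 genome-wide. In replicate 1 its fold enrichment was 31.9 with a −log10 q of 186, and the nearest summit of replicate 2 lay 69223 bp away. A peak at 5816627 to 5816764 (138 bp) had 22.3 in the merged list and 23.6 in replicate 1, and the nearest replicate 2 summit was 40937 bp off. Peaks at 5318176 to 5318289 and at 3841452 to 3841704, with 20.0 and 18.8 in replicate 1, were likewise without a replicate 2 peak. In the other direction, a peak at 3490451 to 3490590 had a fold enrichment of 27.1 in replicate 2, rank 35 of that list, and none in replicate 1. One at 22401719 to 22401849 had 25.7 in replicate 2, rank 50, and the nearest replicate 1 summit lay 39719 bp away. These examples were chosen after their values were seen. Over the 71 peaks the nearest summit of the lacking replicate was a median of 18439 bp away, and within 1 kb for 5. Their median fold enrichment was 10.9, against 11.2 for the 325 strong short-arm peaks found in both. What sets the replicates apart in this stretch was not tested.

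The strongest site of the arm lies at 2519109 to 2519665 (557 bp), and was enriched 34.6-fold among merged peaks, where it ranked 18 genome-wide. Its enrichment was 32.1 in replicate 1 and 34.6 in replicate 2. It is followed by the site at 4121603 described above. Next came the site at 25424582 to 25424818 (237 bp), which had a merged enrichment of 27.9, with 35.6 for replicate 1 against 17.1 for replicate 2. The one after it, at 22361887 to 22362127 (241 bp), had a merged enrichment of 26.7 and one of 28.7 in replicate 1. In replicate 2 its strongest overlapping peak had 6.43 and was 72 bp wide. The narrowest of the 10 strongest, at 10533600 to 10533692 (93 bp), lies just before the near-empty stretch and was enriched 23.5-fold, with 26.4 in replicate 1 and 18.4 in replicate 2.

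Of the other 5, the site at 17340096 to 17340398 had 23.3 in the merged list, the site at 8167028 to 8167226 had 23.0, the site at 33050478 to 33050716 had 22.8 and the site at 3933878 to 3934221 had 22.8. These 4 were found in both replicates, whereas the last of the 10, at 5816627, was found in replicate 1 alone. Only the site at 33050478 lies beyond 26 Mb. The 10 were chosen on the merged list, which draws on these same replicates.

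The 5 widest sites ranged from weak to strong, and 4 of them lay beyond 26 Mb. The widest, at 30237715 to 30238602, measured 888 bp and was enriched 6.07-fold. Its strongest overlapping peak was 410 bp wide in replicate 1 and 587 bp in replicate 2. Further overlapping peaks of a replicate, if any, were not added to these widths. Those at 29895929 to 29896751 (823 bp) and 35151622 to 35152430 (809 bp) had fold enrichments of 11.5 and 11.3. At the site at 35151622 the replicates called nearly the whole width, 794 bp and 801 bp. The site at 26751525 to 26752334 (810 bp, 5.49) was called over 789 bp in replicate 1 and not in replicate 2. At 6877947 to 6878692 (746 bp, 11.8) the strongest overlapping peak was 748 bp wide in replicate 1 and 119 bp in replicate 2.

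Long stretches without a called summit took up much of the arm. No genome sequence was used, so how much of these stretches reads could cover was not examined. Gaps of over 250 kb between neighbouring merged summits numbered 19 and made up 22.3% of the short arm, against 14 gaps and 4.37% of the longer long-arm window. In replicate 1 the shares were 15.3% on the short arm and 1.10% on the long arm, and in replicate 2 they were 26% and 6.21%. No such share was computed over all chromosomes, whose summit density is below that of the long arm. The longest gap, from the summit at 11074734 to that at 13462925, measured 2388 kb, while the longest on the long arm was 535 kb. Taken from the replicates' own summits it was 1216 kb in replicate 1 and 1745 kb in replicate 2. The first 38 Mb of the other 9 chromosomes had a longest gap of 654 kb at most.

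What little was called inside the longest gap was weak and differed between the libraries. Replicate 1 had peaks at 11535573 to 11535632 and at 12751393 to 12751449, with fold enrichments of 5.04 and 5.40. Replicate 2 had 1, at 12818661 to 12818706, with 5.71. They were 46 to 60 bp wide, none overlapped another list, and −log10 q was at most 7.60. The peaks at its edges were weak too: the left one had a merged fold enrichment of 5.57 over 155 bp and the right one 5.58 over 75 bp, and both were called in replicate 1 and not in replicate 2. The next gap, of 627 kb from 13626422 to 14253227, starts after a short island of peaks. It was followed by gaps of 456 kb from 5319422, 407 kb from 17767479 and 366 kb from 28984642. Of these 5 gaps only the last held no summit of either replicate.

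Close pairs of summits were somewhat more frequent on the short arm in the merged list and in replicate 2, but not in replicate 1. A following summit at 1 kb or less was found for 190 of 942 short-arm summits of the merged list, or 20.2% (Wilson interval 17.7 to 22.9%), and for 16.2% (15.1 to 17.4%) on the long arm, with 17.8% over all chromosomes. The difference of 3.97 percentage points (Newcombe interval 1.26 to 6.87) rested on replicate 2, where it was 5.06 (2.14 to 8.19). In replicate 1 it was 0.0594 (-2.43 to 2.74), so the replicates do not bear it out alike. With close peaks joined, within 5 kb, or among peaks with a −log10 q of 20 or more, the merged difference was 2.07 to 2.77 points and its interval reached below 0. At the other end, 24.7% of short-arm and 17.3% of long-arm summits had no following summit within 50 kb, with 22.6% and 15.6% in replicate 1 and 28.3% and 19.7% in replicate 2. The share over all chromosomes was not computed for this distance.

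The arm held 27 groups of at least 3 merged summits with steps of at most 1 kb, which contained 86 of its 942 summits. That was 9.13% of its merged summits, against 6.21% (248 of 3993) on the long arm. In replicate 1 the share was 6.17% on the short arm and 7.31% on the long arm. In replicate 2 it was 11.5% and 5.13%, so the replicates went opposite ways. The difference between the arms was not tested, and the share over all chromosomes was not computed. In the merged list the largest size on the short arm was 4 summits, which 5 groups reached. The first 3 of these by position lie at 1424909 to 1426847, at 27139494 to 27141020 and at 33025429 to 33026907, spanning 1939, 1527 and 1479 bp. In the last, all 4 peaks were found in both replicates and fold enrichment ran from 6.90 to 15.0, while in each of the others 3 of 4 were found in both.

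**Figure D5:**
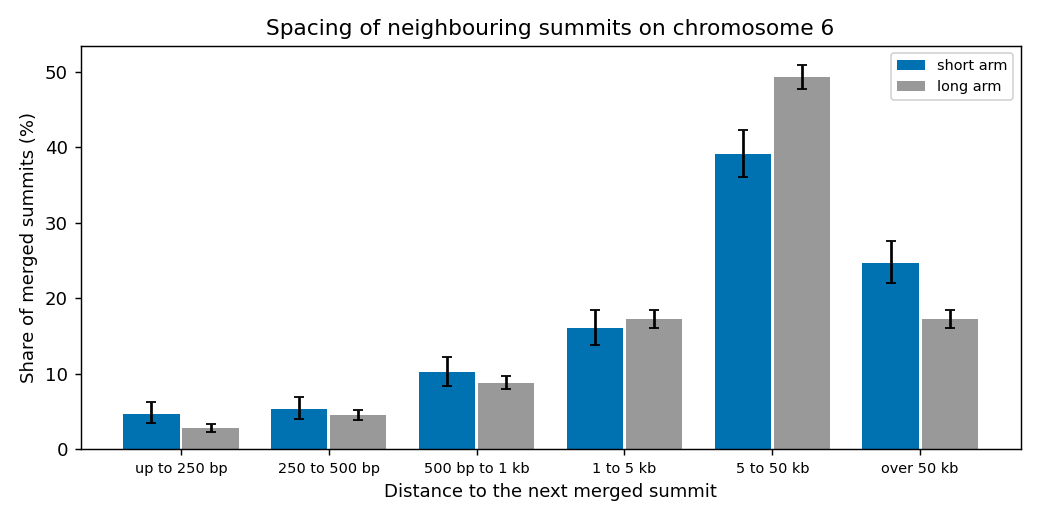
Percentage of merged summits (vertical axis) by distance to the next summit (horizontal axis) on the short arm (blue) and the long arm (grey), with Wilson 95% intervals as error bars. The short arm has the larger share over 50 kb, 24.7% against 17.3%, and the smaller share at 5 to 50 kb, 39.1% against 49.3%.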

How the data were processed

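MH-seq of 2 replicates of B73 leaf was available as 3 peak lists, one per replicate and one merged. Per the submitters' processing notes, the authors used B73 RefGen_v4 with MACS2, Bowtie2, deepTools, ChIPseeker, SAMtools 1.5 and fastp 0.20.0. Their settings and the way the merged list was made were not given in the sources used here. For every deposited peak there is the authors' fold enrichment (a ratio to background), −log10 p, −log10 q and summit position. Read depth is unknown.

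Summits were counted per region and 1 Mb bin in Python 3.11.15 with pandas 2.3.3. An overlap of 1 bp or more made a peak shared. Density ratios carry exact conditional intervals, shares Wilson and differences of shares Newcombe 95% intervals (scipy 1.17.1, statsmodels 0.14.6). Chromosome 6 was taken to end at its last peak end. The functions were tested on simulated peaks. Named peaks are the 10 strongest and 5 widest, the 5 longest gaps, the 3 fullest and 3 emptiest bins and the 3 largest groups, with ties taken by position. The members, the 130 bp limit and the lists were chosen with earlier results of these data known. A gene table of a different assembly was not used, nor a genome sequence, so peaks were not assigned to genes and no sequence is shown. Alternatives covered list, q filter, windows, overlap, narrow limit, spacing and joining of peaks.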

Additional observations from a re-analysis of the deposited data

How the results depend on the processing

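The lower density of the short arm kept its direction and an interval below 0 under all 11 alternatives, with a log2 ratio from -1.01 (the last 38 Mb as the long arm) to -0.50 (11 to 14 Mb left out). The lower share of peaks in both replicates did so under 9 of 10, from -21.6 to -6.86 points, the latter with the replicate lists filtered as well. The exception, added after seeing the data, was the part from 26 to 38 Mb, at -2.47 points (-7.95 to 2.41). The excess of narrow peaks held under 10 of 12 and was 0.720 points (-1.98 to 3.75) among peaks of −log10 q 20 or more, against 0.660 (-4.08 to 6.05) from 26 to 38 Mb. The excess of summits within 1 kb no longer had an interval above 0 with −log10 q of at least 20 (2.75 points), below 26 Mb (2.94, added after seeing the data), within 5 kb (2.77) and with peaks within 100 bp joined (2.07); with a replicate left out it ranged from 0.0594 to 5.06. The median fold enrichment moved to 8.91 with −log10 q of at least 20, a filter that removes weak peaks by construction. The longest gap grew to 3572 kb under that filter and was 1216 to 1745 kb with a replicate left out, as each has summits inside it. Each library gives a value for both arms, but no paired test was run, because with 2 libraries an exact two-sided sign-flip test cannot go below 0.5. Depth is unknown, and a site missing from a list is one where no peak was called. Why sites were missing was not tested.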

Other observations

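Strong peaks missing from a replicate also gathered on chromosomes 2 and 4, in windows set after the counts were seen as at least 5 bins of 1 Mb, each with 3 or more such peaks and at most 10 Mb apart. On chromosome 2 from 219 to 231 Mb, 38 of 226 strong merged peaks (16.8%) lacked a counterpart in one replicate, 37 of them in replicate 2. On chromosome 4 from 173 to 196 Mb, 55 of 410 (13.4%) did, 46 of them in replicate 2. Below 26 Mb on chromosome 6 the share was 25.2%. The 3 windows differ in density, with 25.1 merged summits per Mb on chromosome 6, 42.8 on chromosome 2 and 42.5 on chromosome 4. Their shares of narrow peaks were 32.8%, 23.6% and 23.8%, and 55.3%, 62.0% and 66.4% of the merged peaks there were in both replicates.

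Many deposited fold enrichments are whole multiples of one step, within 0.0001. The step was 0.360 for replicate 1, 0.357 for replicate 2 and 0.223 for the merged peaks. On the short arm 17.4% of replicate 1 peaks, 20.0% of replicate 2 peaks and 17.0% of merged peaks were on the grid, against 9.38%, 5.58% and 7.26% on the long arm and 10.1%, 5.94% and 7.56% over all chromosomes. The difference between the arms was 8.06 points in replicate 1 (Newcombe interval 5.68 to 10.6) and 14.4 in replicate 2 (11.7 to 17.4). In replicate 2 the share was 24.4% below 26 Mb and 11.1% from 26 to 38 Mb, whereas in replicate 1 it was 17.4% and 17.6%. From 10 to 16 Mb, where 69.2% of merged peaks were under 130 bp, it was 43.4% in replicate 1 and 49.0% in replicate 2. Grid values lay mostly in narrow peaks. On the short arm 40.6% of narrow and 6.83% of wider merged peaks were on the grid, and on the long arm 22.3% and 2.71%. From 38 to 68 Mb the share on the grid was 20.4% in replicate 1 and 7.84% in replicate 2. In the windows on chromosomes 2 and 4 replicate 2 had 20.8% and 12.8% of its peaks on the grid and replicate 1 had 5.19% and 6.92%. This measure was added after the data were seen, and its part in the missing peaks was not tested.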
